A study of Mus musculus with 2 samples.

Results

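The genes described are 10 members of the BCL2 family, the proteins that decide whether mitochondria release the factors that start apoptosis. They were chosen by gene symbol: the pro-survival genes Bcl2, Bcl2l1 and Mcl1, the effector genes Bax and Bak1, and the BH3-only genes Bcl2l11, Bbc3, Pmaip1, Bid and Bad. Of the 10, 9 had a named probe set among the 19505 named genes of the array, each with 1 probe set, and Bax was not analysed here. Total RNA came from B16F10 cells, a mouse melanoma line, measured on 2 Affymetrix arrays. One population was transfected with an expression plasmid for NRF3 and the other with an expression plasmid for GFP. In each case a vector for puromycin resistance was added, the cells were selected with puromycin, and they then received forskolin, which raises cellular cAMP, for 5 days. The comparison therefore concerns NRF3 expression under forskolin, and no cells without forskolin were analysed here. With 1 array per group there is no replicate error and no test, and every difference describes this pair of RNA samples. The labels do not say whether the cells were clones or pools, nor which species' NRF3 sequence was expressed.

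Pro-survival BCL2 proteins hold the effectors BAX and BAK in check, and BH3-only proteins bind the pro-survival proteins or the effectors and tip the balance towards death. When BAX or BAK permeabilises the outer mitochondrial membrane, cytochrome c leaves and activates caspases through APAF1. In the melanocyte lineage BCL2 is needed for survival and its gene is a known target of MITF, the lineage's master transcription factor.

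Values are log2 expression on the deposited scale. A gene counted as detected if its higher value was at least 5.89, the median over named probe sets, and 10162 genes met this floor. The floor was set by rule, and background was read from other rows. The array carries 5222 control rows with neg in their names, here called negative control rows. Their medians were 6.12 for GFP and 6.37 for NRF3, and their upper quartiles 7.52 and 7.85. The floor lies below both medians, so a detected gene need not be above background. The array also carries 23 background rows sorted by GC content, which ran from 2.65 to 8.16 over both arrays, so background depends on base composition. These rows were also higher on the NRF3 array. Their median was 5.89 there against 5.55 on the GFP array, and their maximum 8.16 against 7.11. Values of different genes are not compared with each other, because each probe set has its own response. The labels were checked on Nfe2l3, the gene of NRF3, which read 6.04 in GFP cells and 10.1 in NRF3 cells. The label of the cells was checked on lineage markers. All 7 melanocyte markers were detected, against 0 of 5 leukocyte, 1 of 7 fibroblast and endothelial, and 0 of 7 epithelial markers with a named probe set. The exception, Pdgfrb, lay at 6.02 and 5.79. In RNA from whole cultures, fewer cells of a kind and less RNA per cell cannot be told apart.

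Bcl2 and Bcl2l1, both pro-survival genes, were lower in the NRF3 cells, and Mcl1, the other pro-survival gene, was marginally higher. Among the BH3-only genes Bcl2l11 was lower, while Bid and Bad lay close on both arrays. The effector gene Bak1 was within 1.5-fold. Thus 3 of the 7 detected members were at least 1.5-fold lower and 0 were at least 1.5-fold higher. Among all detected genes 23.6% were that much lower and 17% that much higher. This background lean depends on the scaling: 1728 genes were higher and 2396 lower as deposited, 2036 and 2095 after median centring, and 2124 and 2018 after quantile normalization. As medians, NRF3 minus GFP came to -0.31 over the 7 detected members and -0.13 over all 9 with a value, against -0.07 over all detected genes. Bcl2l11 met the floor only through its GFP value, so these counts depend in part on the side where it was high.

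**Figure D1:**
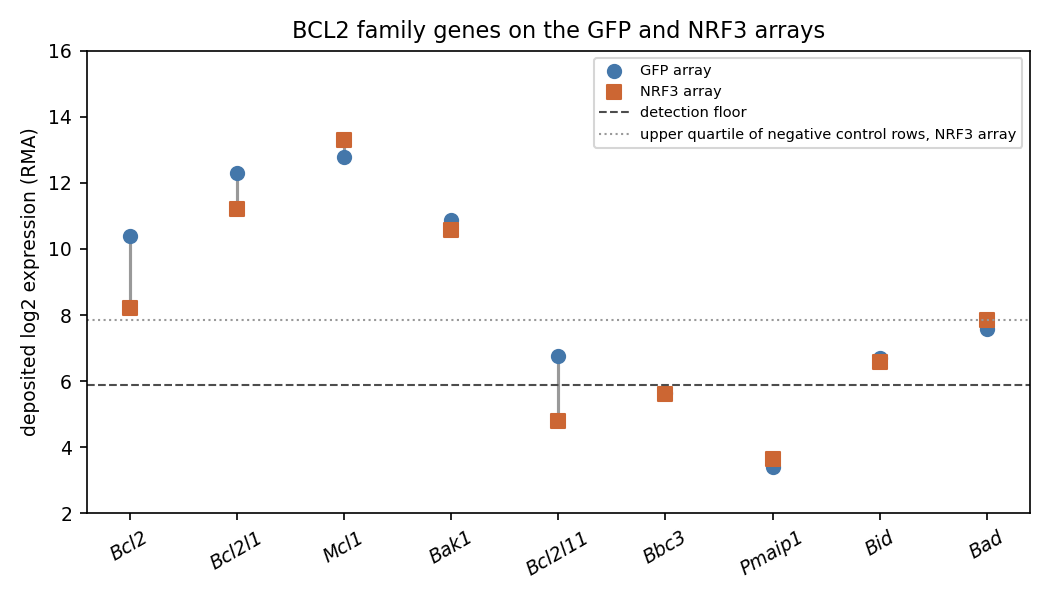
Deposited log2 expression (vertical axis) of the 9 members with a named probe set on the GFP array (circles) and the NRF3 array (squares), 1 array each, with no error bars because there are no replicates. The dashed line is the detection floor of 5.89 and the dotted line the upper quartile of the negative control rows on the NRF3 array, 7.85; Bcl2, Bcl2l1 and Bcl2l11 show the widest gaps, and Bbc3 and Pmaip1 lie under the floor on both arrays.

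Bcl2 (NCBI gene 12043, chromosome 1) encodes the founding pro-survival protein of the family. It read 10.38 (log2) in GFP cells and 8.20 in NRF3 cells. The NRF3 value stayed above the upper quartile of the negative control rows, though 20.8% of those rows were as high, against 3.85% on the GFP array. The difference was -2.18, so that the GFP value was 4.52-fold the NRF3 value. A difference as low or lower was found for 130 of the 10162 detected genes, or 1.28%.

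The start of Bcl2 is shown here because it is the member with the lowest difference and because cAMP-responsive and antioxidant-type elements bear on the treatment and the expressed factor. The window is the 250 bases before the RefSeq start, chr1:106714291-106714540 of GRCm38.p6, minus strand, and 74.8% of its bases are G or C. Capitals mark the only match to the motifs searched, TGACG, the core of the cAMP response element, which lies 107 bases before the start.
Bcl2: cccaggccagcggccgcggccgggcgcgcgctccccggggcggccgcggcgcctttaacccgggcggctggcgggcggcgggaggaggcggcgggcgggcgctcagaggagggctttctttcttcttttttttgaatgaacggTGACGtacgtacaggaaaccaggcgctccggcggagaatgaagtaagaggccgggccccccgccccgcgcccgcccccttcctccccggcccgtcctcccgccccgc

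Short motifs were searched on both strands in all 32851 RefSeq start windows of 300.0 bases (250 before to 50 after a start). They were TGACNNNGC, the core of the antioxidant response element that cap'n'collar factors such as NRF3 bind with small MAF proteins, the full cAMP response element TGACGTCA and its core TGACG, and the E-boxes CATGTG and CACGTG, which MITF and its relatives bind. Every full cAMP response element also holds the core, and an antioxidant element can overlap it. TGACG was found in 20.8% of all windows, TGACNNNGC in 12.4%, CATGTG in 14.2%, CACGTG in 7.15% and TGACGTCA in 1.79%. The table matched 9 of the 10 member genes (all but Pmaip1), with 15 windows. Of these 3 held TGACG, 1 held TGACNNNGC, 1 held CATGTG, 2 held CACGTG and 0 held TGACGTCA. The matches are descriptions of letters and do not show binding.

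Bcl2l1 (NCBI gene 12048, chromosome 2) encodes BCL-XL, the pro-survival protein closest to BCL2. It read 12.30 (log2) in GFP cells and 11.22 in NRF3 cells, levels that 1.46% and 3.18% of the negative control rows reached. The difference was -1.08, a GFP value 2.11-fold that of NRF3, and 9.50% of detected genes had one as low or lower. Bcl2l1 had 3 starts in the RefSeq table, and 1 of them carried the antioxidant element core and the MITF-type E-box close together. Both sites are printed on the gene's strand (minus, GRCm38.p6) with the match in capitals; the first reads as the antioxidant core on the opposite strand, at chr2:152828608-152828616, and the second as CATGTG, at chr2:152828592-152828597.
Bcl2l1 antioxidant core: gagtcctgGCCCTGTCActtaactg
Bcl2l1 E-box: taactggcCATGTGaccttgga
The array does not tell which start was used.

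Mcl1 (NCBI gene 17210, chromosome 3) encodes a pro-survival protein that is made and degraded quickly. It read 12.79 (log2) in GFP cells and 13.31 in NRF3 cells. The difference of 0.52, or 1.44-fold, fell just short of the 1.5-fold rule, which is 0.58 on the log2 scale. A difference as high or higher was found for 19.6% of detected genes. The pro-survival genes therefore did not lie to the same side: Bcl2 and Bcl2l1 were lower and Mcl1 was not.

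Bak1 (NCBI gene 12018, chromosome 17) encodes BAK, which forms pores in the outer mitochondrial membrane. It read 10.88 (log2) in GFP cells and 10.57 in NRF3 cells, so that the difference was -0.31. With the median of its 50 neighbours on the chromosome subtracted the difference was 0.05, so its direction was not stable.

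Bcl2l11 (NCBI gene 12125, chromosome 2) encodes BIM, a BH3-only protein that binds all pro-survival members. It read 6.75 (log2) in GFP cells and 4.78 in NRF3 cells. The difference was -1.97, a GFP value 3.92-fold that of NRF3, and 1.85% of detected genes had one as low. The NRF3 value lay under the floor, and 80.3% of the negative control rows were as high or higher. On the GFP array 38.0% of those rows were as high as Bcl2l11, so its GFP value is itself not clearly above background. Counted from the GFP value down to the floor only, the difference is 0.86. The size of the difference thus depends on background. None of the motifs matched in its 2 start windows.

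Bid and Bad, whose BH3-only proteins link death receptors and growth factor signalling to mitochondria, were within the rule as deposited. Bid (NCBI gene 12122, chromosome 6) read 6.72 in GFP cells and 6.59 in NRF3 cells, a difference of -0.13. Bad (NCBI gene 12015, chromosome 19) lay at 7.58 and 7.84, a difference of 0.26. All of these values except the GFP value of Bad were below the negative control upper quartile of their array, and that value was only just above it.

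Bbc3 and Pmaip1 encode PUMA and NOXA, BH3-only proteins known as targets of p53. Bbc3 (NCBI gene 170770, chromosome 7) lay at 5.63 and 5.60, and Pmaip1 (NCBI gene 58801, chromosome 18) at 3.41 and 3.65. Both were under the floor on both arrays, and of the negative control rows 61.1% were as high as Bbc3 and 95.0% as high as Pmaip1 on the GFP array. A difference between the groups was not detectable for either gene at these signals.

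Bcl2 lies on chromosome 1, where the 552 detected genes had a median difference of -0.51, against -0.05 for the 9610 detected genes elsewhere. On this chromosome 44.2% of detected genes were at least 1.5-fold lower. Bcl2 stood below most of its surroundings. The 50 nearest detected genes, 25 on each side, had a median of -0.48, and 21 of them were at least 1.5-fold lower and 2 as much higher. The difference of Bcl2 less that median was -1.70. Only 1 of the 50 neighbours had a difference as low, Gpc1, a heparan sulfate proteoglycan gene, at -2.77. The highest neighbour was Serpinb8, at 2.98, from a GFP value of 5.00 under the floor. Over the chromosome 17 of the 552 detected genes, Bcl2 included, were as low.

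Of the 20 nearest detected genes, 10 on each side of Bcl2, 8 were at least 1.5-fold lower and 1 as much higher. The detected genes closest to Bcl2 were within 1.5-fold. On one side lay Phlpp1, a phosphatase gene, at -0.02, and Zcchc2 at 0.01. On the other lay Kdsr, of sphingolipid synthesis, at 0.34 and Vps4b at -0.42. Tnfrsf11a and Serpinb5, the next named genes outward, were not detected. The values of Phlpp1 and Zcchc2 are too close to 0 to carry a direction. What moves the genes of chromosome 1 together was not tested.

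**Figure D2:**
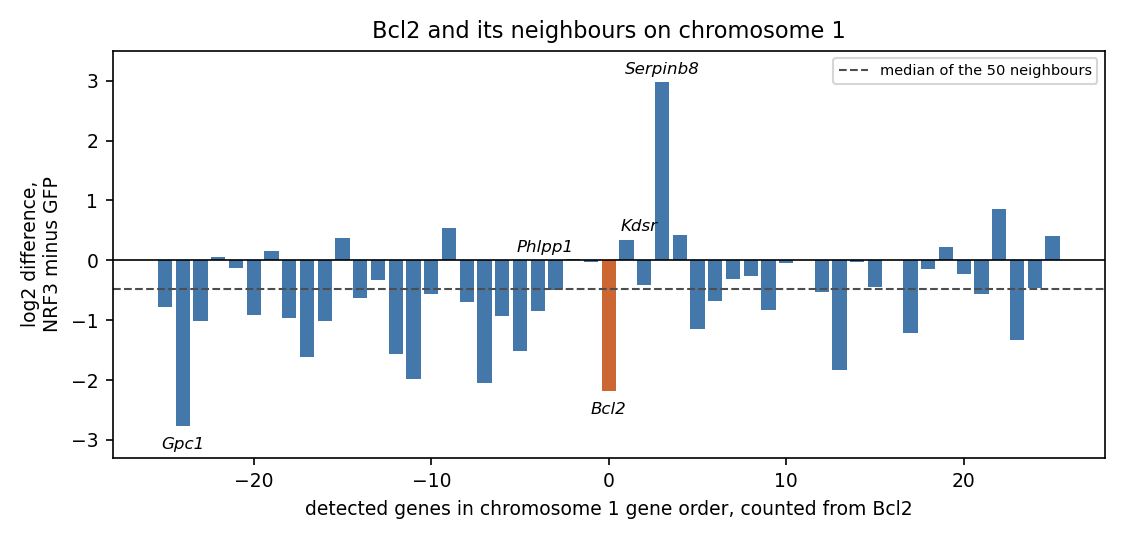
Log2 difference of NRF3 minus GFP (vertical axis) for Bcl2 and the 25 detected genes on each side of it in gene order on chromosome 1 (horizontal axis, counted in genes); 1 array per group, so bars have no error. The dashed line is the neighbours' median of -0.48, and Bcl2 at -2.18 stands beside Phlpp1 at -0.02 and Kdsr at 0.34.

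Subtracting the median of 50 neighbours in the same way gave -0.88 for Bcl2l1, -1.48 for Bcl2l11 and 0.39 for Mcl1. Bad moved from 0.26 to 0.70 and so past the rule as a higher gene, with the dim signals given above. All 3 members past the 1.5-fold rule thus stayed past it, with Bcl2l11 still limited by its dim signal. Bcl2l1 and Bcl2l11 share chromosome 2, whose detected genes had a median of -0.23.

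**Figure D3:**
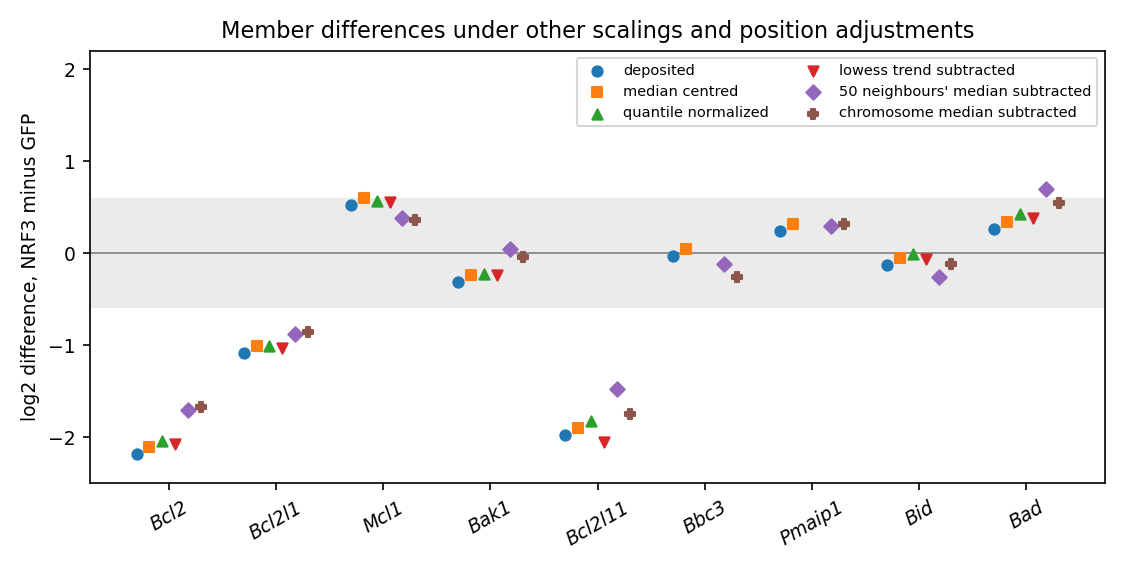
Log2 difference of NRF3 minus GFP (vertical axis) for each member as deposited and after each scaling or position adjustment (symbols); the grey band marks differences within 1.5-fold, and Bbc3 and Pmaip1 have no quantile or lowess value because they were not detected. Bcl2 ranged from -2.18 to -1.67, Bcl2l1 from -1.08 to -0.85 and Mcl1 from 0.36 to 0.60.

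Of the 17 further family genes 8 were detected, 2 of them at least 1.5-fold higher and 0 lower, with a median of 0.34, against 17% higher and 23.6% lower among all detected genes. Bnip3, a mitophagy receptor gene that also responds to hypoxia, read 11.93 in GFP cells and 12.94 in NRF3 cells, a difference of 1.01. Bcl2a1a, a pro-survival gene, differed by 0.87 and met the floor only through its NRF3 value, and its values of 5.44 and 6.31 were below the negative control medians, 6.12 and 6.37, and it has near-identical copies that can share signal. The lowest were Bcl2l13 at -0.12 and Bik, a BH3-only gene, at -0.01, whose direction turned with median centring and quantile normalization.

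Of 11 detected apoptosome and caspase genes 5 were at least 1.5-fold lower and 1 as much higher (median -0.29). That is 45.5% and 9.09%, against the same 23.6% and 17% of all detected genes. One of the lower genes, Casp9, met the floor only through its GFP value, at 5.99 against 5.23, and cannot be told from background. Htra2, a mitochondrial protease that is released in apoptosis, read 13.48 in GFP cells and 11.92 in NRF3 cells, a difference of -1.56. Endog, a mitochondrial nuclease gene, differed by -1.40, from 7.36 in GFP cells to 5.97 in NRF3 cells. Its GFP value was below the negative control upper quartile of 7.52, and its NRF3 value below the median of 6.37. Dffa, another of the lower genes, lay at 8.11 and 7.24, and its NRF3 value was below the upper quartile of 7.85. Casp8, the initiator caspase of death receptors, was higher by 0.59, just past the rule, and Apaf1 by 0.47.

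Of 4 detected inhibitor of apoptosis genes 2 were lower and 1 was higher (median -0.31). That is 50% and 25%, against 23.6% and 17% of all detected genes. Birc5, which encodes survivin and acts mainly in mitosis, lay at 12.92 and 11.72, a difference of -1.20. Xiap, a direct caspase inhibitor, differed by -0.65, and was within the rule at -0.57 after median centring and -0.53 after quantile normalization, which leaves 1 lower gene. Birc2 differed by 0.60 and Birc6 by 0.03. Birc2 was dim, at 6.34 and 6.94.

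In the death receptor pathway 3 of 7 detected genes were higher and 1 was lower, with a median of 0.01. That is 42.9% and 14.3%, against 17% and 23.6% of all detected genes. The adaptor gene Tradd differed by 1.37 and the deubiquitinase gene Cyld by 1.19. Both lie on chromosome 8, whose detected genes had a median of 0.56, and 47.5% of those genes were at least 1.5-fold higher. On the GFP array Cyld was dim, at 6.84, below the negative control upper quartile of 7.52. Cflar, which encodes the caspase-8 inhibitor FLIP, lay at -0.59, just past the rule and within it at -0.49 after quantile normalization. Its chromosome is chromosome 1, whose detected genes had a median of -0.51. Traf2 lay at -0.29.

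Among 12 detected regulators of the family's genes 6 were lower and 2 higher, with a median of -0.37. That is 50% and 16.7%, against 23.6% and 17% of all detected genes. Myc, which sensitises cells to apoptosis, read 11.55 in GFP cells and 8.04 in NRF3 cells, a difference of -3.50, and the cell cycle factor gene E2f1 differed by -1.17. Mitf was higher by 0.93, from 14.26 to 15.19, while Bcl2, its known target, was lower. Bcl6 was higher by 0.95, but its values of 5.12 and 6.07 cannot be told from background.

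Genes that act on the family's proteins were mostly within the rule. Of 12 detected, 2 were lower and 1 higher, with a median of -0.18. That is 16.7% and 8.33%, against 23.6% and 17% of all detected genes. Akt1, the kinase that inactivates BAD, differed by -0.99 and Usp9x, which stabilises MCL1, by -0.83. Fbxw7, of a ubiquitin ligase that marks MCL1 for degradation, was higher by 1.04 from a dim GFP value of 6.36, and Dynll2, a light chain that binds BMF, by 0.39. Of 14 detected mitochondrial channel, fission and endoplasmic reticulum partner genes 4 were lower and 2 were higher (median -0.01). These shares, 28.6% and 14.3%, were near the same 23.6% and 17% of all detected genes. Vdac3, an outer membrane channel gene on chromosome 8, was higher by 1.68 and the co-chaperone gene Bag3 by 0.84. Itpr2, a calcium release channel gene, lay at -0.94. Fkbp8, which anchors BCL2 at mitochondria, lay at -0.80. It is also on chromosome 8, where 9.29% of detected genes were at least 1.5-fold lower.

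Over these 7 lists together, 12 of 68 detected genes were at least 1.5-fold higher and 20 were as much lower. That is 17.6% and 29.4%, against 17% and 23.6% of all detected genes, and the median was -0.05. With the median of 50 neighbours subtracted from each gene, 13 of the 68 were higher and 13 lower, against 17.9% higher and 19.3% lower among all detected genes treated alike.

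**Figure D4:**
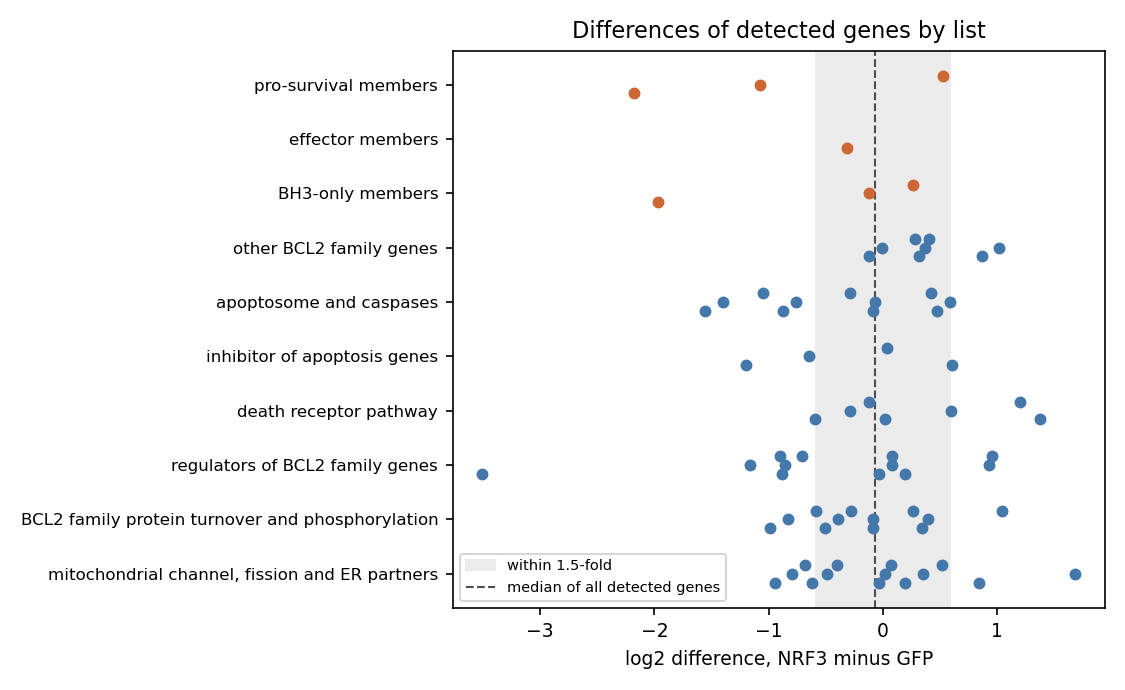
Log2 difference of NRF3 minus GFP (horizontal axis) for each detected gene of the members (orange) and of 7 related lists (blue), 1 point per gene, with points shifted up or down only to keep them apart. The grey band marks differences within 1.5-fold and the dashed line the median of all detected genes, -0.07; Bcl2 at -2.18 and Bcl2l11 at -1.97 stand to the left among the members, and Myc at -3.50 is the lowest point shown.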

How the data were processed

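Total RNA (100.0 ng per labelling, per the labels' protocols) was measured on 1 array for each of 2 groups. The deposited values are log2 expression per probe set, which the authors made with RMA in Affymetrix Expression Console, per the submitters' processing notes. Its version, its background settings and the build behind it were not given in the sources used here. The 28846 rows were joined to the platform's gene table, which named 19572 probe sets. All of them matched RefSeq (GRCm38.p6) by gene number, which gave chromosomes and gene order. Where a gene had several probe sets, that of highest mean stood for it. Differences are NRF3 less GFP in log2 units. No test was possible, and at least 1.5-fold is a rule of size.

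Named are all members, the 2 highest and 2 lowest detected genes of each list, the 3 nearest named genes on each side of Bcl2, and Nfe2l3. Gpc1, Serpinb8, Casp9, Dffa and Pdgfrb were named after their values were seen. Members and lists were chosen with earlier results of these data known. Promoter windows are from RefSeq (GRCm38.p6), and the motifs were chosen after the data were seen. Arrays give no read depth, and their number limits the precision. Python 3.11.15, pandas 2.3.3 and statsmodels 0.14.6 were used, and the functions were tested on simulated data. Alternatives were other scalings, floors, fold rules, probe set means and position adjustments.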

Additional observations from a re-analysis of the deposited data

How the results depend on the processing

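Bcl2 and Bcl2l1 stayed at least 1.5-fold lower under median centring, quantile normalization, lowess subtraction, and subtraction of the neighbours' or the chromosome's median. Bcl2l11 did too, but it met the floor only through its GFP value and its signal is dim, so this adds no support. The mean over probe sets could not change any member, because each analysed member has 1 probe set. With a stricter floor of 9.51, the 75th percentile, Bcl2l11 was no longer counted. The count of higher members was 1 after median centring, Mcl1 at 0.60, and 1 after subtraction of the neighbours' median, Bad at 0.70, against 0 as deposited. Over the 7 related lists, the count of higher genes moved from 12 to 6 with the stricter floor and to 5 with a 2-fold rule. The count of lower genes moved from 20 to 13 after subtraction of the neighbours' median and to 6 with a 2-fold rule. These list counts are out of 68 genes, except with the stricter floor. The 2-fold rule cut calls across the whole array too, from 17% to 6.75% for higher genes and from 23.6% to 11% for lower ones. The drop under that rule was therefore not particular to the lists. How many list genes met the stricter floor is not given here, so the 6 higher genes have no share to compare. Quantile normalization moved the median of all detected genes from -0.07 to 0.03. The other member values, and the other counts over the members or over the 7 lists together, stayed within 1.5-fold of those reported. Counts of single lists could move further. Under both median centring and quantile normalization, lower genes went from 2 to 1 among inhibitors of apoptosis. In the death receptor pathway they went from 1 to 0. No paired analysis was possible because each group has 1 array, and for the same reason no replicate could be left out. Genes whose signal lies in the range of the negative control rows, which include Bcl2l11, Bid and Bad, limit what these arrays can show.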
